A study of Mus musculus with 13 samples.

Results

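Chromosomes 2 and 13 of the mouse hold stretches in which the number of genes and the level of 5-hydroxymethylcytosine (5hmC) part ways, and these stretches are described here. All 300 kb bins of the pair that were above 0 in at least 1 of 13 tumours were taken, 987 of 8576 such bins on chromosomes 1 to 19 and X. Chromosome 2 gave 595 bins with 1782 protein-coding genes and chromosome 13 gave 392 bins with 829. The tumours were breast tumours of FVB mice driven by the polyoma middle T oncogene (PyMT), 1 per mouse in the labels, and DNA of all groups was extracted with 200 µM deferoxamine, an iron chelator. Groups were Phd2 heterozygous (PHD2+/-, n = 4) and Phd2 wild type (PHD2+/+, n = 3) mice at 16 weeks, and mice injected hydrodynamically with an sFlk1 plasmid (n = 3) or with the empty PRRL2 vector (n = 3) at 12 weeks. PHD2 is an oxygen-sensing hydroxylase and sFlk1 a soluble VEGF receptor. Per the labels, Phd2 heterozygosity restores vessels and oxygen in the tumour and sFlk1 makes it more hypoxic. The labels do not say in which cells the Phd2 allele is lost, and each value comes from a whole tumour with all of its cell types, so a change in 5hmC per cell and a change in the mix of cells cannot be told apart.

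5hmC is made from 5-methylcytosine by the TET dioxygenases, which need oxygen. In many tissues it is most abundant over the bodies of active genes and at enhancers. Bins with many genes therefore tend to hold more of it than gene deserts. Mouse chromosome 2 carries the largest olfactory receptor cluster of the mouse, and chromosome 13 the clusters of type 1 vomeronasal receptors, prolactin hormones, placental cathepsins and replication-dependent histones. Olfactory and vomeronasal receptors are used in the sensory neurons of the nose. A tandem cluster raises the gene number of a bin while each gene, often of a single coding exon, covers little of it.

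A bin was called gene-rich low where at least 4 protein-coding genes had most of their body in it (the top 25% of autosomal bins) and its mean over the 13 tumours was at or under 1.14% (the bottom 25%). It was called gene-poor high where no gene had most of its body in it and the mean was at or above 3.94% (the top 25%). Class bins were thus chosen by their measured 5hmC level, averaged over all tumours, and that level is a description with no test. The classes held 31 and 47 bins. The gene-rich low bins just inside the limit were at 1.05% and 0.962%, and the gene-rich bins just outside it at 1.17% and 1.18%. The gene-poor bins nearest the upper limit were at 3.95% and 4.01% inside and 3.93% and 3.93% outside.

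Promoters of the classes differed in the dinucleotide that carries nearly all DNA methylation and 5hmC, CG. The 300 bases around the start of 4 genes of tandem families and of 2 genes beside gene-poor high bins are printed because the contrast is visible in them. From each family the gene with the family's median CG number was taken, for the first 3 families within gene-rich low bins. The capitals mark each CG, each sequence is read 5′ to 3′, and the source is the RefSeq table of GRCm38.p6. Olfr1018, an olfactory receptor, is at chr2:85822723-85823022 (+ strand). Vmn1r195, a vomeronasal receptor, is at chr13:22278067-22278366 (+ strand). Ctsj, a cathepsin protease, is at chr13:61005876-61006175 (- strand). Lcn3, a lipocalin, is at chr2:25765283-25765582 (+ strand). Arhgap15 is at chr2:43787105-43787404 (+ strand), and Pik3r1, the regulatory subunit of PI3-kinase, is at chr13:101768168-101768467 (- strand).
Olfr1018: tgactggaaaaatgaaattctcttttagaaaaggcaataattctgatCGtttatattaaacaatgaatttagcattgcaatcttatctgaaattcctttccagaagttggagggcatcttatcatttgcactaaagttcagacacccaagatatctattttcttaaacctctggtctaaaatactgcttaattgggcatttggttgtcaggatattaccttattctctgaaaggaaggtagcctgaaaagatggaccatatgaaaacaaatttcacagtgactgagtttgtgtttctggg
Vmn1r195: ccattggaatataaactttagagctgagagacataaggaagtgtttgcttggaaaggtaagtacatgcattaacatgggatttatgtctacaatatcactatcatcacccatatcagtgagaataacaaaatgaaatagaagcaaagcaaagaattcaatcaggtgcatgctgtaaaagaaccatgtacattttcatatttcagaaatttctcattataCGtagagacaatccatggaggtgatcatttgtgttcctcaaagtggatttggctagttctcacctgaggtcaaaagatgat
Ctsj: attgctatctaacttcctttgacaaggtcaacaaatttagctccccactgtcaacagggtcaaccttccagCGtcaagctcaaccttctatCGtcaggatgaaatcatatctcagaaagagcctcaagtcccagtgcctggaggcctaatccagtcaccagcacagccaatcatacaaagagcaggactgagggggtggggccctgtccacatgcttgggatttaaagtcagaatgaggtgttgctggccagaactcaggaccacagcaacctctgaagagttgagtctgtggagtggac
Lcn3: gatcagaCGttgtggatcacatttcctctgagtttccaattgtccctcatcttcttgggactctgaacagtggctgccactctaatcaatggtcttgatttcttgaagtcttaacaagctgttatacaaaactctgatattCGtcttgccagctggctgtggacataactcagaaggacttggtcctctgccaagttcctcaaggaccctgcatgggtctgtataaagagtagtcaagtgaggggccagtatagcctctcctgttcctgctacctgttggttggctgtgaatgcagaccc
Arhgap15: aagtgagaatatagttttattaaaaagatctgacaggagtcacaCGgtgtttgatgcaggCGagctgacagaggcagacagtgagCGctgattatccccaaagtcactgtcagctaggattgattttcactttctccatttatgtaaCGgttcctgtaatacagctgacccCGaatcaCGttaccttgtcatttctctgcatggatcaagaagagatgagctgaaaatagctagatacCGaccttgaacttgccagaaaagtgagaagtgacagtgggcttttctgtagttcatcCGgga
Pik3r1: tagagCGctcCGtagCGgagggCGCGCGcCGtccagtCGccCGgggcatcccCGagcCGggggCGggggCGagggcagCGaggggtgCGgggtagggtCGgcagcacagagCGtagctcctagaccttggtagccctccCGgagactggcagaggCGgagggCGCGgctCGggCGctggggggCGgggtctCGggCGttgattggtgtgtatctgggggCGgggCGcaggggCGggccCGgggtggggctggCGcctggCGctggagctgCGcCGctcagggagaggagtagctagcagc
These promoters held 1 CG at Olfr1018, 1 at Vmn1r195, 2 at Ctsj and 2 at Lcn3, against 8 at Arhgap15 and 34 at Pik3r1. Over the class, 280 of 323 genes in gene-rich low bins had a promoter in the table, with a median of 1 CG and 97.5% with 5 or fewer. All 17274 protein-coding genes with a promoter had a median of 14, and 31.2% had 5 or fewer. The 20 genes whose body reached into a gene-poor high bin had a median of 14 over 19 promoters, and the 484 genes of gene-rich bins with high 5hmC had a median of 20 over 418. A promoter with few CG did not always lie in a bin with low 5hmC. The 13 lipocalin promoters of chromosome 2 had a median of 2 CG, while the lipocalin bins lay at a median of 3.61%. These bins held 74 genes in all, so lipocalins were the minority there and the level is that of mixed bins. Lcn3 itself lies in a bin at 3.61% and Olfr1018 in a bin at 0.570%. The other printed promoters lie in bins at 0.728% (Vmn1r195), 0.660% (Ctsj), 3.41% (Arhgap15) and 7.97% (Pik3r1). Arhgap15, with 8 CG, is thus in a lower bin than Lcn3.

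Gene number and 5hmC were weakly related on chromosome 13 and moderately on chromosome 2. Spearman's correlation across bins was 0.0659 on chromosome 13 (n = 392 bins), the lowest of the 19 autosomes, and 0.335 on chromosome 2 (n = 595 bins), at rank 17 of 19. The other autosomes ran from 0.277 on chromosome 7 to 0.574 on chromosome 1, and pooled they gave 0.467 (n = 7032 bins). Bins share libraries and neighbours, so these values describe the chromosomes only. Without the 26 olfactory receptor bins, the correlation on chromosome 2 was 0.484. On chromosome 13 it was 0.224 without the gene-poor high bins and 0.279 without both classes. The classes were chosen by gene number and 5hmC level against the trend. A rise on leaving them out was therefore fixed in advance and explains nothing. When the share of a bin covered by gene bodies took the place of gene number, the correlation was 0.441 on chromosome 2, 0.327 on chromosome 13 and 0.441 on the other autosomes.

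On chromosome 13 the departure was clearest in bins without genes, on chromosome 2 in the gene-dense ones. On chromosome 13 the 129 bins without a gene had a median of 2.27%, on chromosome 2 the 162 such bins 1.43%, and on the other autosomes the 2324 such bins 1.09%. In bins of 8 or more genes the medians were 2.20% on chromosome 13, 3.22% on chromosome 2 and 3.43% on the others. The lower quartile of those gene-dense bins was 0.693% on chromosome 2, against 2.45% on the others. In mean 5hmC chromosome 13 had rank 3 and chromosome 2 rank 5 of 19, while in genes per bin chromosome 13 had rank 14 and chromosome 2 rank 5.

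**Figure D1:**
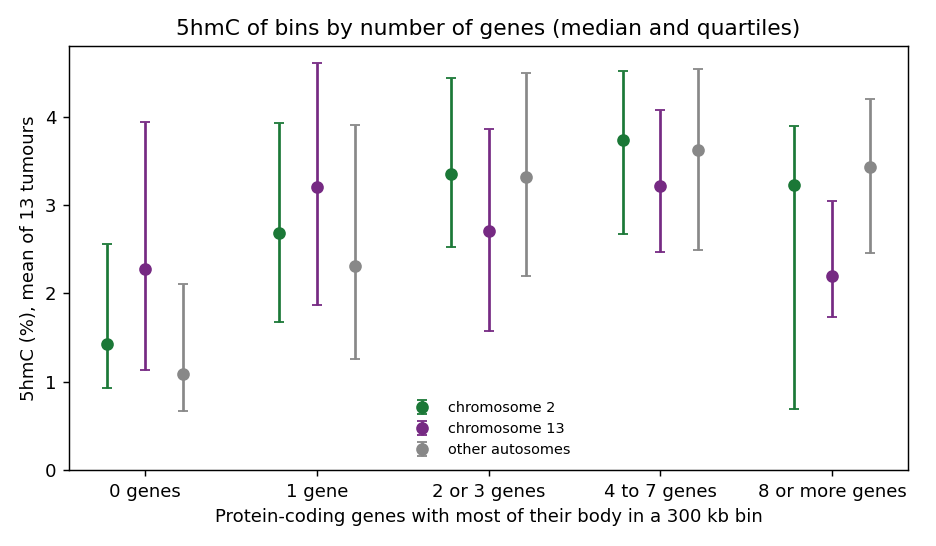
Level of 5hmC (%, mean of 13 tumours) of 300 kb bins by the number of protein-coding genes with most of their body in the bin, for chromosome 2, chromosome 13 and the other autosomes; points are medians and bars the lower and upper quartiles. Bins without a gene lie highest on chromosome 13 (median 2.27%), and the lower quartile of bins with 8 or more genes drops to 0.693% on chromosome 2.

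By class, 24 of the 179 gene-rich bins of chromosome 2 (13.4%) and 7 of the 81 of chromosome 13 (8.64%) were low, against 177 of 1795 (9.86%) on the other autosomes. Of the gene-poor bins, 32 of 129 on chromosome 13 (24.8%) and 15 of 162 on chromosome 2 (9.26%) were high, against 159 of 2324 (6.84%) elsewhere. The share on chromosome 13 was the highest of the 19 autosomes and that on chromosome 2 had rank 5. Chromosome 7, with 53 of 190 gene-rich bins, had the highest share of low ones, and chromosome 2 had rank 3. When bins were chosen in the 7 tumours of the Phd2 groups and read in the 6 plasmid tumours, all 32 gene-rich low bins lay below the autosomal median of 2.49% and all 50 gene-poor high bins above it. Chosen the other way round, all 32 and all 48 were on the same side of the median (2.51%). Fewer kept the limits that define the classes. Of those chosen in the Phd2 groups, 22 of 25 gene-rich low bins of chromosome 2 and 6 of 7 of chromosome 13 were in the bottom 25% of the plasmid tumours, and 15 of 16 and 29 of 34 gene-poor high bins in the top 25%. Of those chosen in the plasmid groups, 22 of 23 and 6 of 9 gene-rich low bins, and 15 of 17 and 29 of 31 gene-poor high bins, kept their side of the limit in the Phd2 tumours.

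The longest gene-rich low stretch was the olfactory receptor cluster of chromosome 2, from 85800001 to 90300000 (GRCm38). It spanned 15 bins with 203 protein-coding genes, of which 201 were olfactory receptors such as Olfr1033 and Olfr32. Their bodies covered 7.45% of the sequence. The stretch held 0.639%, 0.413%, 0.484% and 0.4997% 5hmC in the 4 Phd2 heterozygous tumours, against 0.444%, 0.354% and 0.354% in the wild type. It held 0.992%, 0.778% and 0.505% in sFlk1 tumours, against 0.555%, 0.702% and 0.569% in empty vector tumours. Every tumour was therefore under 1% there, while the 10 bins flanking it averaged 3.83%. Single bins of the stretch ran from 0.339% to 0.701%.

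The right border of this cluster was abrupt at this resolution, and the left one less so. The bin after it, from 90300001 to 90600000, holds the last receptors Olfr1565 and Olfr1274 together with Ptprj, a receptor tyrosine phosphatase. It held 9.16%, 6.20%, 7.38% and 7.99% in Phd2 heterozygous tumours, against 5.19%, 3.93% and 6.50% in wild-type tumours. The mean over all 13 was 6.40%, against 0.701% in the neighbouring bin of receptors alone. The border bins were picked after their values were seen. On the left the 2 bins before the stretch, which hold 19 receptors, were at 1.54% and 2.00%.

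Receptors alone went with the lowest levels. Of the 26 olfactory receptor bins of chromosome 2, the 21 in which receptors made up all genes had a median of 0.570% and a maximum of 2.00%. The 5 that also held other genes had a median of 1.54%, up to 6.40%. The 287 receptors of chromosome 2 lay in bins with a median of 0.624%, 22 of these bins in the bottom 25%. The 124 olfactory receptor bins of the other autosomes had a median of 1.39%, with 53 in the bottom 25%. The 4 bins with the 13 olfactory receptors of chromosome 13 had a median of 2.17%, with 1 in the bottom 25%. These 4 bins held 44 genes in all, so receptors were the minority there. Receptors made up 287 of the 297 genes in such bins on chromosome 2 and 803 of 1199 on the other autosomes.

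The other 2 receptor stretches of chromosome 2 were alike in level. From 36300001 to 37200000, 3 bins with 25 genes, all olfactory receptors, held 0.603%, between flanks at 4.40%. From 111000001 to 112200000, 4 bins with 37 receptors among 38 genes held 0.759%, between flanks at 2.98%. The low single bin of chromosome 2 without a tandem family, from 178200001 to 178500000, held 0.614%. Its 5 genes include Phactr3, a regulator of protein phosphatase 1, Sycp2, a protein of the meiotic synaptonemal complex, Cdh26, a cadherin, and Fam217b. Gene bodies covered 90.3% of it, against a median of 6.64% over the class.

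On chromosome 13 the vomeronasal receptor stretch from 22200001 to 23100000 held 3 bins with 26 genes, 25 of them Vmn1r genes such as Vmn1r212 and Vmn1r213. Its mean was 0.699%, with flanks at 2.30%. The tumours ran from 0.407% to 1.03% in Phd2 heterozygous, from 0.298% to 0.739% in Phd2 wild type, from 0.540% to 1.23% in sFlk1 and from 0.554% to 0.848% in empty vector animals. The groups overlapped in both models. All 5 vomeronasal receptor bins of chromosome 13 were below the autosomal median, as were 93 of 98 on the other autosomes.

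The placental cathepsin cluster, from 60900001 to 61800000, gave 2 class bins at 0.660% and 0.804%, with a bin of 2 genes at 0.793% between them. Its genes include Cts8 and Cts6, cysteine proteases of the rodent placenta. The bin before it, from 60600001 to 60900000, held 6.48%. There the cathepsin gene Ctsll3 sits beside Dapk1, which encodes a death-associated protein kinase. Single low bins of chromosome 13 held Nlrp4f, Zfp369 and Olfr466 (from 65100001 to 65400000, 0.801%) and the aldo-keto reductases Akr1c14, Akr1c18 and Akr1c13 (from 3900001 to 4200000, 1.05%), enzymes of steroid metabolism.

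Values of 0 were frequent in the gene-rich low bins. Of 403 values in the gene-rich low bins, 41 were 0, in 19 of the 31 bins, 18 of them on chromosome 2. Depth is unknown, so a value of 0 may mean absent 5hmC or absent coverage. The low levels did not rest on zeros alone: the vomeronasal stretch had 0 zeros in 39 values and the long olfactory stretch 25 in 195. The share of zeros was 12.9% in Phd2 heterozygous, 7.53% in Phd2 wild-type, 10.8% in sFlk1 and 8.60% in empty vector tumours. The gene-poor high bins had 0 zeros in 611 values. A bin of the zinc finger genes Zfp968 and Zfp965, on chromosome 2 from 175200001 to 175500000, was 0 in 12 of 13 tumours and 12.5% in empty vector tumour 1. The class mean is given with and without this bin in the sFlk1 comparison, where it matters.

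**Figure D2:**
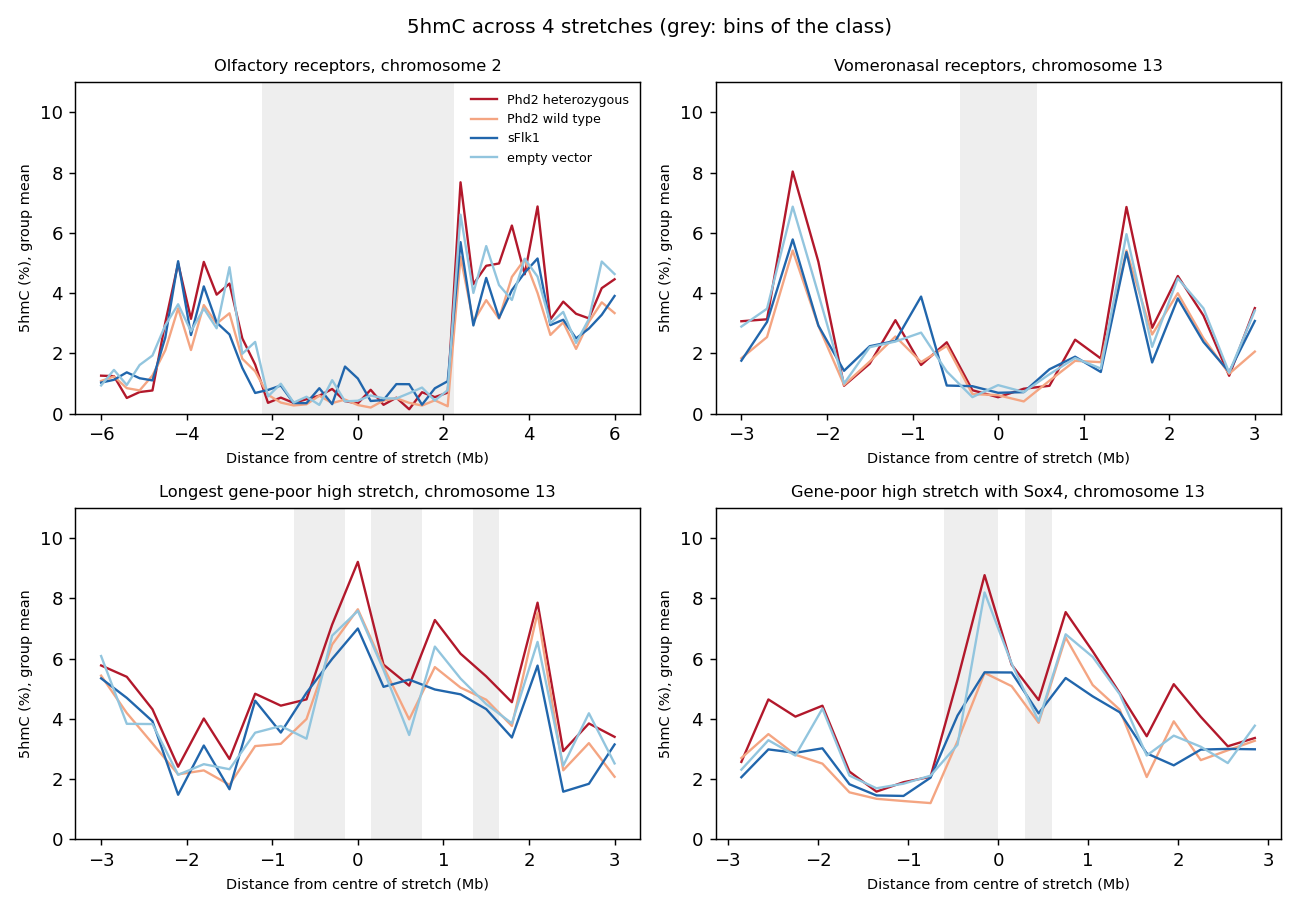
Group means of 5hmC (%) in 300 kb bins against the distance (Mb) from the centre of 4 stretches; lines are the 4 groups and grey marks bins of the class. The olfactory receptor stretch lies flat below 2% in all 4 groups between flanks at 3.83%, and the vomeronasal stretch at 0.699% between flanks at 2.30%. The lower panels show the gene-poor high stretches beside Pik3r1 (5.24%) and around Sox4 (5.13%).

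Not all bins with multigene families were low, though other genes share many of them. The 5 lipocalin bins of chromosome 2 (13 genes for carriers of small lipophilic molecules, among 74 genes in all) lay between 3.44% and 5.24%. The 4 bins of whey acidic protein domain, Kunitz inhibitor and seminal vesicle genes, 25 of 61 genes there, lay between 3.01% and 3.82%. The 4 cystatin bins, with 11 genes of cysteine protease inhibitors, had a median of 2.50%. The 5 bins of clade B serpins on chromosome 13, serine protease inhibitors, had a median of 2.74%. The 4 histone bins, with 53 histone genes, lay between 1.62% and 2.41%, against a median of 3.94% in 5 histone bins of other autosomes. These sets are unlike: histones were 53 of 76 genes in the bins of chromosome 13 and 14 of 54 in the others. The 6 prolactin bins, with 25 genes of the hormone and its placental relatives, had a median of 1.58% and a range from 0.639% to 1.97%. The 2 bins of Hoxd genes, which pattern the limb and trunk, averaged 2.11%. Zinc finger bins had a median of 2.74% on chromosome 2 (20 bins), 2.18% on chromosome 13 (18 bins) and 3.11% on the other autosomes (204 bins).

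**Figure D3:**
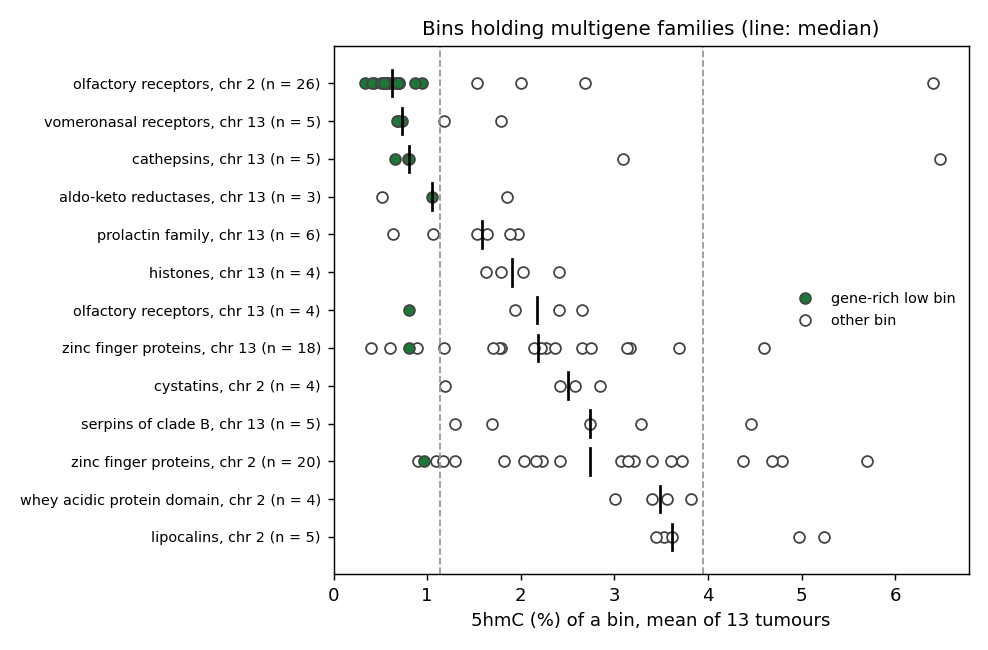
5hmC (%, mean of 13 tumours) of each bin that holds a member of a multigene family with 3 or more bins on chromosome 2 or 13; filled points are gene-rich low bins, black lines family medians and dashed lines the limits of the bottom and top 25% (1.14% and 3.94%). The olfactory receptors of chromosome 2 and the vomeronasal receptors lie at the low end (0.624% and 0.728%). The olfactory receptors of chromosome 13, in bins shared with other genes, lie in the middle (2.17%). Lipocalins, also in bins shared with other genes, lie at the high end (3.61%), with single bins of receptors beside other genes reaching 6.40%.

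The opposite exception was most frequent on chromosome 13. Of the 47 gene-poor high bins, 25 touched no gene body and 22 held part of a gene whose larger share was in another bin. That part could be small: gene bodies covered on average 0.141% of the class bins beside Plk2, against 100% of those inside Macrod2. Thus gene-poor here means that no gene has most of its body there. At least 1 long noncoding RNA gene was annotated in 37 of the 47 (78.7%), against 28 of the 90 gene-poor bins with low 5hmC (31.1%) and 5 of the 31 gene-rich low bins. The share was 69.4% over all 987 bins of the pair and 88.9% in its 81 gene-rich high bins, so it was not particular to the gene-poor high class. Bins without any gene body averaged 4.88% and those with part of a gene, however small, 4.98%.

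Around Sox4, a transcription factor of progenitor cells, a stretch from 28200001 to 29400000 held 3 class bins averaging 5.13%. The bin from 28500001 to 28800000 had the highest level of the class, 7.15%, with no protein-coding gene in it. It held 6.70%, 10.6%, 8.80% and 9.03% in Phd2 heterozygous tumours, against 5.61%, 4.22% and 6.75% in wild-type tumours. It held 6.07%, 5.71% and 4.87% in sFlk1 tumours, against 10.6%, 6.86% and 7.10% in empty vector tumours. In the Phd2 model 1 heterozygous tumour lay below 1 wild-type tumour, and in the sFlk1 model the groups were apart. Limma, run on all 8576 bins, gave adjusted p = 0.342 for the Phd2 and 0.661 for the sFlk1 difference. The stretch begins 48.4 kb after Prl5a1, the last gene of the prolactin cluster, whose bins from 27000001 to 28200000 lay between 1.53% and 1.97%.

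The longest stretch ran from 101100001 to 102600000 on chromosome 13, on both sides of Pik3r1, with 4 class bins averaging 5.24%. It held 5.61%, 6.21%, 5.90% and 4.98% in Phd2 heterozygous tumours, against 5.26%, 4.40% and 5.48% in wild-type tumours. In the plasmid model it held 5.04%, 5.05% and 5.84% in sFlk1 tumours, against 4.67%, 4.92% and 4.81% in empty vector tumours. The Phd2 groups overlapped, and all 3 sFlk1 tumours lay above all 3 empty vector tumours. In the Pde4d stretch the order was the opposite, with 4.28%, 4.36% and 4.45% in sFlk1 tumours, against 5.70%, 6.02% and 4.77% in empty vector tumours.

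Other stretches of chromosome 13 lay inside or beside genes of signalling and transcription. Within Pde4d, a cAMP phosphodiesterase, 3 class bins from 108600001 to 109800000 averaged 5.17%. Beside Plk2, a kinase of the cell cycle, the bins from 110400001 to 111000000 averaged 5.07%. Those from 32100001 to 32700000, which hold part of Gmds, an enzyme of GDP-fucose synthesis, averaged 5.31%. Around Jarid2, a cofactor of Polycomb complex PRC2, and Dtnbp1, which lie in the bin between them, 3 class bins from 44100001 to 45300000 averaged 4.48%. Single bins were higher: 6.45% at Rreb1, a Ras-responsive transcription factor, 6.27% between Map3k1, a MAP kinase kinase kinase, and Ankrd55, and 5.92% in Chrm3, a muscarinic receptor.

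Chromosome 2 had fewer and shorter stretches. The bins from 44100001 to 44700000, over parts of Arhgap15 and Gtdc1, averaged 4.41%, with flanks at 2.50%. Those from 140700001 to 141300000, inside Macrod2, an ADP-ribosylhydrolase, averaged 4.27%. Those from 50400001 to 51000000, between Mmadhc and Rnd3, averaged 4.11%. Single bins reached 6.07% in Etl4, 5.37% between Rasgrp1 and Thbs1, which encodes thrombospondin 1, and 4.95% in the bin from 9300001 to 9600000. The last lies 257 kb from Gata3, a luminal transcription factor of the mammary gland.

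Long genes, those over 300 kb, formed both kinds of neighbourhood. Of 37 on chromosome 2, 11 had a mean in the top 25% and 5 in the bottom 25% (median 2.75%). Of 25 on chromosome 13, 12 were in the top and 3 in the bottom 25% (median 3.69%). Atxn1, which encodes ataxin 1, held 7.91% and Baz2b, a bromodomain protein, 6.96%, while the 7 bins of Lrp1b, a lipoprotein receptor family member of 2058 kb, averaged 1.18%, between 0.479% and 1.78%. Galnt13, a mucin-type glycosyltransferase, averaged 0.671% over 3 bins. Macrod2, of nearly the length of Lrp1b, averaged 3.37% over 7 bins. These long genes were named after their values were seen.

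A list of developmental regulators, which often stand alone in gene deserts, gave 35 of 36 genes on the pair in 34 bins. Their bins had a median of 3.06%, with 9 genes in the top 25% and 0 in the bottom 25%. The highest were Foxc1 (6.93%), a forkhead factor next to the Gmds stretch, Gata3 (5.97%) and Sox4 (5.59%). Pax1, a factor of the axial skeleton, was lowest at 1.17%. Of the 35, 28 had a higher mean in Phd2 heterozygous than in wild-type tumours, against 75.1% of all bins. A lower mean in sFlk1 than in empty vector tumours was found for 24, against 59.5% of all bins, and limma called 0 in either comparison (lowest adjusted p = 0.324 and 0.626). At an unadjusted p under 0.05, 4 were higher in heterozygous tumours, against 10.4% of all bins, and 2 higher in sFlk1 tumours, against 2.12%. In both comparisons 0 were lower, against 0.443% of all bins in the Phd2 and 5.06% in the sFlk1 comparison.

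Phd2 heterozygous tumours were set against the wild type to ask where 5hmC differs when tumour oxygen is restored. Over all 8576 bins the mean was 2.87% ± 0.265 in heterozygous (SD, n = 4) and 2.34% ± 0.137 in wild-type tumours (SD, n = 3), with no overlap. In percentage points the gene-poor high bins differed by more than this overall shift and the gene-rich low bins by less. The 47 gene-poor high bins averaged 5.44%, 6.55%, 5.33% and 5.00% in Phd2 heterozygous tumours, against 4.61%, 3.96% and 4.55% in wild-type tumours. The 2 groups were fully apart. Heterozygous tumours averaged 5.58% ± 0.674 (SD, n = 4), against 4.37% ± 0.360 (SD, n = 3) for wild-type ones, or 1.21 points more (SE 0.396), which is 27.7%. The 1742 bins of the top 25% on other autosomes differed by 1.24 points (SE 0.347) or 27.4%, and the 81 gene-rich high bins of chromosomes 2 and 13 by 1.28 points (SE 0.310).

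The 31 gene-rich low bins averaged 0.680%, 0.577%, 0.555% and 0.533% in Phd2 heterozygous tumours, against 0.563%, 0.489% and 0.455% in wild-type tumours. Heterozygous tumours 3 and 4 lay below wild-type tumour 1, so the groups overlapped. Heterozygous tumours averaged 0.586% ± 0.0651 (SD, n = 4), against 0.502% ± 0.0554 (SD, n = 3), 0.0841 points apart (SE 0.0456) or 16.7%. Levels were also divided by each tumour's mean over all bins and multiplied by the mean over all tumours, 2.61%. On that scale the difference turned to -0.0257 points, and that of the gene-poor high bins was 0.203. The bottom 25% of bins on the other autosomes differed by 0.0134 points. Whether the 2 classes differ from each other in their percent change was not tested.

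**Figure D4:**
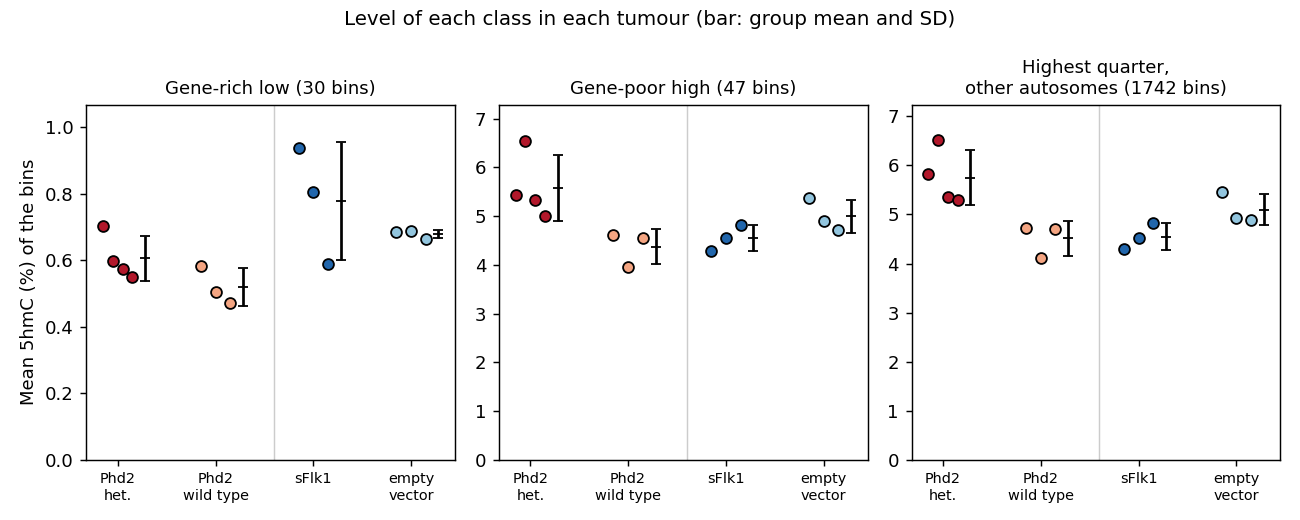
Mean 5hmC (%) per tumour over the gene-rich low bins (without the bin at 0 in 12 of 13 tumours), the gene-poor high bins and, as a background, the top 25% of bins on the other autosomes; points are tumours and bars the group mean and SD. The Phd2 groups are apart in the gene-poor high bins (5.58% and 4.37%) as in the top 25% elsewhere (5.75% and 4.51%) and overlap in the gene-rich low bins.

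With limma 0 of the 987 bins passed an adjusted p under 0.05, and 0% of all 8576 bins did. At an unadjusted p under 0.05, 128 bins were higher in heterozygous tumours, against 10.4% of all bins, and 0 were lower, against 0.443%. Without wild-type tumour 2 there were 58 higher, and with each tumour's mean over all bins subtracted 38 were higher and 31 lower. The 128 included 13 of the 47 gene-poor high bins (27.7%), a share close to the 26.1% among the top 25% of bins on the other autosomes. They included 0 of the 31 gene-rich low bins, against 0.708% of the bottom 25% on the other autosomes. In 132 of the 987 bins all heterozygous lay above all wild-type tumours, against 11% of all bins, and in 3 they lay below, against 0.933%. The 132 included 8 of the 47 gene-poor high bins and 0 of the gene-rich low bins. A higher mean in heterozygous tumours was found in 45 of the 47 gene-poor high and 17 of the 31 gene-rich low bins, against 75.1% of all bins. The shares were 95.7% and 54.8%, close to the 95.4% and 51.0% of the top and bottom 25% of bins on the other autosomes.

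Among the stretches, those around Sox4, around Jarid2 and Dtnbp1 and inside Macrod2 were apart between the Phd2 groups. So was the mean over all 8576 bins, at 2.95%, 3.17%, 2.81% and 2.54% in heterozygous tumours, against 2.42%, 2.18% and 2.41% in wild-type tumours. Being apart is thus not particular to these stretches. The bins around Jarid2 and Dtnbp1 held 5.59%, 5.43%, 5.20% and 4.70% in heterozygous tumours, against 3.94%, 3.55% and 3.78% in wild-type tumours (difference 1.47, SE 0.226). The bins inside Macrod2 held 5.67%, 4.95%, 5.20% and 4.73% in heterozygous tumours, against 3.27%, 3.14% and 3.67% in wild-type tumours (difference 1.78, SE 0.257). The Sox4 stretch averaged 6.24% ± 0.805 in heterozygous (SD, n = 4) and 4.22% ± 0.833 in wild-type tumours (SD, n = 3). The bins at Gmds and Plk2 were also apart. These stretches were picked for non-overlap after the values were seen, so they carry no test.

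The prolactin family bins of chromosome 13, with hormone genes of pituitary and placenta, differed by more points than the receptor stretches, a contrast that was not tested. They include bins from 12600001 to 13200000, apart from the cluster from 27000001 to 28200000. All 6 prolactin family bins together averaged 1.33%, 1.90%, 1.58% and 1.39% in heterozygous tumours, against 1.10%, 1.01% and 1.25% in wild-type tumours (difference 0.429, SE 0.146). The groups were apart, as they were in the mean over all bins. As a percent of the wild-type level the difference was 38.3%, against 32.6% in the long olfactory stretch and 32.0% over all 26 olfactory receptor bins of chromosome 2. In the vomeronasal bins the difference was 0.0872 points (SE 0.141), and in the long olfactory stretch 0.125 points (SE 0.0561), with overlap in both. Over all 26 olfactory receptor bins of chromosome 2, mixed bins included, heterozygous tumours held 1.22%, 0.990%, 0.965% and 0.962%, against 0.855%, 0.636% and 0.858% in wild-type tumours, and these were apart. The 26 include the bin shared with Ptprj, at 7.68% in heterozygous and 5.21% in wild-type tumours. None of the olfactory stretches of the class was apart by itself, so the 32.0% is a value of mixed bins. The histone bins of chromosome 13 averaged 2.07% ± 0.368 in heterozygous and 1.86% ± 0.0876 in wild-type tumours (SD, n = 4 and 3), also with overlap. The 18 zinc finger bins of chromosome 13 averaged 2.29% ± 0.117 in heterozygous and 1.88% ± 0.135 in wild-type tumours, with no overlap (SD, n = 4 and 3). The 4 bins of whey acidic protein domain, Kunitz inhibitor and seminal vesicle genes averaged 3.68% ± 0.240 in heterozygous and 3.06% ± 0.207 in wild-type tumours, also apart. The bin from 119100001 to 119400000 holds only Spint1, a Kunitz inhibitor gene, of this set. The lipocalin and cystatin bins overlapped.

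The 5 bins with the smallest p in heterozygous against wild-type tumours all lay outside the classes, and limma gave each an adjusted p of 0.324. The bin of Phf21a, a histone demethylase complex subunit, starts at 92100001 on chromosome 2. It held 6.88% ± 1.11 in heterozygous and 4.01% ± 0.662 in wild-type tumours (SD, n = 4 and 3). The bin of Trp53bp1, a DNA repair protein, held 5.20% ± 0.862 in heterozygous and 2.75% ± 0.313 in wild-type tumours. That of Nedd9, a scaffold of cell adhesion signalling, held 5.62% ± 0.612 in heterozygous and 3.37% ± 0.886 in wild-type tumours. Slc35b3, a transporter of the sulfate donor PAPS, and Arfgef2, an exchange factor of ARF GTPases, were in the other 2. The 5 lower bins with the smallest p had limma adjusted p from 0.476 to 0.632. The first, a bin without a protein-coding gene between Fgf10 and Nnt, held 0.244% ± 0.185 in heterozygous and 0.799% ± 0.326 in wild-type tumours.

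Joined to 3 Mb windows, which average 10 bins, 30 of 100 windows of the pair passed limma's adjusted p as higher in heterozygous tumours, against 23.7% of all 868, and 0 as lower. They were 19 of 60 on chromosome 2 and 11 of 40 on chromosome 13. At an unadjusted p under 0.05, 62 were higher, against 50.1% of all windows, and 0 lower, against 0.115%. Of the 11 windows with at least 2 gene-poor high bins 6 passed, against 18 of the 70 with none, a difference that was not tested. Of the 6 with at least 2 gene-rich low bins 1 passed, from 36000001 to 39000000 on chromosome 2, where other genes surround the receptors. The receptor stretch within it, from 36300001 to 37200000, had the opposite order of means. It averaged 0.513% in heterozygous and 0.707% in wild-type tumours, with overlap. The window of Pde4d and Plk2, chromosome 13 from 108000001 to 111000000, averaged 5.28% ± 0.472 in heterozygous and 3.70% ± 0.573 in wild-type tumours (SD, n = 4 and 3; limma adjusted p = 0.0275). The window inside the olfactory cluster, from 87000001 to 90000000, averaged 0.521% ± 0.154 in heterozygous and 0.393% ± 0.0296 in wild-type tumours (limma adjusted p = 0.413).

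These window calls were not stable: their count changed with the tumours and with the fit used. The count was 0 without heterozygous tumour 1, heterozygous tumour 2, wild-type tumour 2 or wild-type tumour 3, 4 without wild-type tumour 1, 24 without heterozygous tumour 3 and 70 without heterozygous tumour 4. It was also 0 with the 7 tumours of the model fitted alone and with each tumour's mean subtracted.

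**Figure D5:**
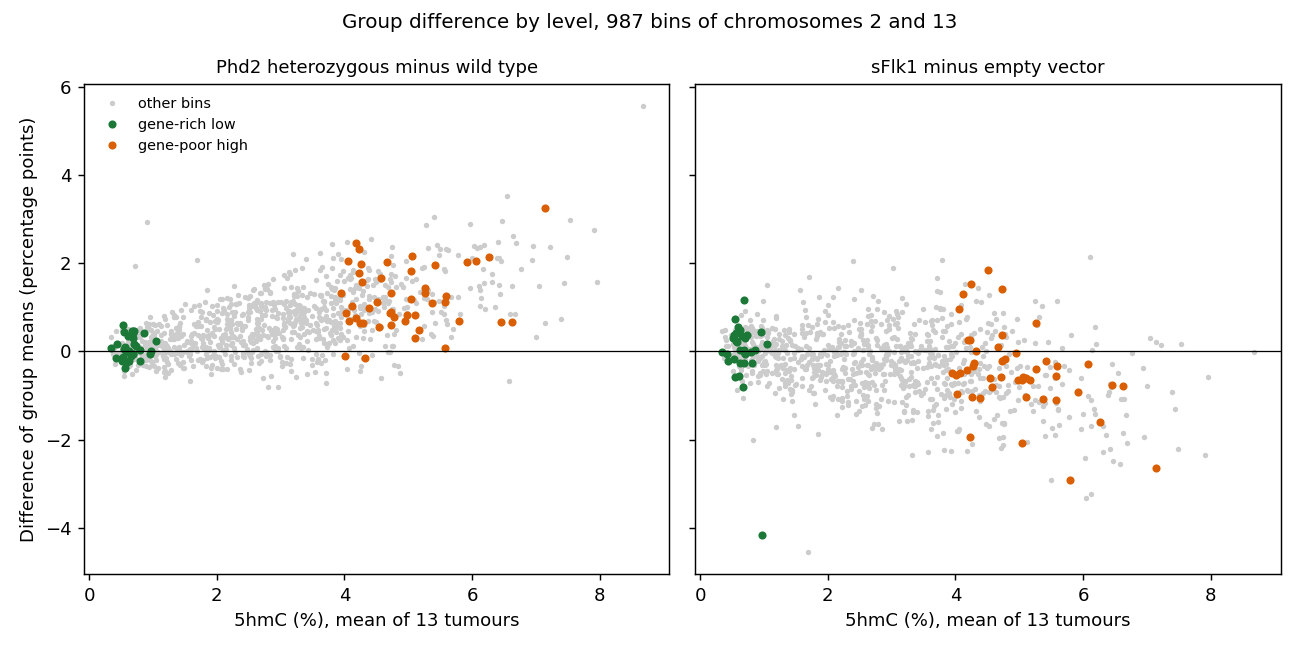
Difference of group means (percentage points) of each of the 987 bins against its 5hmC level (%, mean of 13 tumours), for Phd2 heterozygous minus wild type and for sFlk1 minus empty vector; colours mark gene-rich low and gene-poor high bins. In the Phd2 model 45 of 47 gene-poor high bins lie above 0 and the gene-rich low bins lie around 0, and in the sFlk1 model 36 of 47 gene-poor high bins lie below 0.

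Tumours made more hypoxic by sFlk1 were set against their empty vector controls to ask the same in the opposite direction. Over all 8576 bins the mean was 2.46% ± 0.0670 in sFlk1 and 2.68% ± 0.158 in empty vector tumours (SD, n = 3 each), with no overlap. The gene-poor high bins averaged 4.28%, 4.54% and 4.83% in sFlk1 tumours, against 5.37%, 4.89% and 4.72% in empty vector tumours. The groups overlapped, since sFlk1 tumour 3 lay above empty vector tumour 3. sFlk1 tumours averaged 4.55% ± 0.274 and empty vector tumours 5.00% ± 0.336 (SD, n = 3 each), a difference of -0.446 points (SE 0.250), against -0.550 points (SE 0.241) in the top 25% elsewhere. Without empty vector tumour 1 the difference was -0.259 points. The gene-rich low bins averaged 0.753% ± 0.171 in sFlk1 and 0.792% ± 0.238 in empty vector tumours (SD, n = 3 each). Without the bin at 0 in 12 of 13 tumours they held 0.939%, 0.806% and 0.589% in sFlk1 tumours, against 0.686%, 0.687% and 0.666% in empty vector tumours. The means were then 0.778% ± 0.177 in sFlk1 and 0.680% ± 0.0122 in empty vector tumours, so that single bin set the sign of the difference.

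With limma 0 of the 987 bins passed, against 0.0117% of all bins. At an unadjusted p under 0.05, 55 were lower in sFlk1 tumours, against 5.06% of all bins, and 18 higher, against 2.12%. With each tumour's mean subtracted 31 were lower and 37 higher. In 85 bins each sFlk1 tumour was under each empty vector tumour, against 8.24% of all bins, and in 26 bins over each of them, against 3.43%. At an unadjusted p under 0.05, 4 of the 47 gene-poor high bins (8.51%) were lower, against 7.98% of the top 25% of bins on the other autosomes. Of the 31 gene-rich low bins, 2 were lower and 2 higher by that rule (6.45% each). In the bottom 25% of bins on the other autosomes, 2.34% were lower and 4.52% higher. A lower mean was found in 36 of the 47 gene-poor high and 14 of the 31 gene-rich low bins, against 59.5% of all bins with a lower and 40.3% with a higher mean. The shares were 76.6% and 45.2%, close to the 72.6% and 44.1% of the top and bottom 25% of bins on the other autosomes. Of the 3 Mb windows 0 of 100 passed, with 9 lower at an unadjusted p under 0.05, against 7.6% of all windows, and 0 higher, against 0.576%.

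Olfactory receptor bins led both lists of the sFlk1 comparison. The bin with the smallest p among those higher, from 87600001 to 87900000 in the middle of the long stretch, holds 18 receptors including Olfr1134. It held 1.62%, 1.20% and 1.87% in sFlk1 tumours, against 0.248%, 0.664% and 0.316% in empty vector tumours (limma adjusted p = 0.466). The bin with the smallest p among those lower, from 85500001 to 85800000 at the edge of the same cluster, holds the desaturase gene Fads2b and 13 receptors. It held 0.777%, 0.896% and 0.391% in sFlk1 tumours, against 2.58%, 2.36% and 2.21% in empty vector tumours (limma adjusted p = 0.356). The groups were apart in both bins, in opposite directions, and neither passed. The bin of Fmn1, an actin nucleator, held 4.46% ± 0.893 in sFlk1 and 7.70% ± 1.87 in empty vector tumours (SD, n = 3 each; limma adjusted p = 0.466). The zinc finger bin of Zfp729a, from 67500001 to 67800000 on chromosome 13, held 2.62% ± 0.283 in sFlk1 and 0.927% ± 0.783 in empty vector tumours (SD, n = 3 each; limma adjusted p = 0.497). A part of Adamts6, an extracellular protease, lies in a bin with 1.85% ± 0.890 in sFlk1 and 4.19% ± 0.571 in empty vector tumours (limma adjusted p = 0.466, n = 3 each).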

How the data were processed

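5hmC was measured by shallow tet-assisted bisulfite sequencing (TAB-seq), in which 5hmC is shielded from oxidation and reads as cytosine, in 13 tumours. The authors deposited 1 table of 5hmC in percent, with 1 column per tumour and 300 kb bins. The submitters' processing notes name the tool Bismark (0.13.1) and the build mm9, yet the last bins end at GRCm38 lengths (182113224 on chromosome 2, 120421639 on chromosome 13), so coordinates are GRCm38. Pooling of reads per bin, coverage filters and conversion rates are unstated. No read counts are given, so the depth is unknown, no counting interval can be had, and sparse bins enter with full weight.

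Groups came from the sample titles, which number the mice. Bins at 0 in all tumours were left out. Protein-coding genes of the RefSeq table (GRCm38.p6) were put in the bin with most of their body, families were read from symbols (cystatins without the Cstf and Cstad genes that share the prefix), and lncRNA genes from the same table. Class limits were the bottom and top 25% over 8019 autosomal bins. Bins and 868 windows of 3 Mb were fitted in limma 3.58.1 (R 4.3.3) on percentages, 13 tumours, 4 group means, with a trend and Benjamini-Hochberg adjustment over all of them at 0.05. SEs of class differences come from the group SDs. In simulated data limma recovered 40.5% of bins raised by 2 points in the Phd2 design and 36% in the sFlk1 design, and 78.5% and 75.5% of windows raised by 1 point. Values were drawn independently for each bin or window with the spread of these tumours, and 200 were raised. No shift common to all bins was simulated, so these shares do not give the power for these data. Of chromosomes 2 and 13, up to 6 stretches (at least 2 class bins with at most 1 other between neighbours) and 3 single bins per class are named, and the 5 bins with the smallest p per direction. Members, families and lists were chosen with earlier results of these data known. Alternatives covered gene assignment, limits, zeros, scaling, the fit and single tumours.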

Additional observations from a re-analysis of the deposited data

Results flagged for a closer look

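A tumour stood apart from the other 3 of the Phd2 heterozygous group, by Dixon's criterion at 95%, in 6 of 97 sets of bins, where chance alone flags about 1 in 20. Heterozygous tumour 2 had 1.03% in the gene-rich low bins of chromosome 13, against 0.689% to 0.719% in the others. It had 3.76% in the bins of clade B serpins, against 2.86% to 2.91%. Heterozygous tumour 1 had 1.22% in the olfactory receptor bins of chromosome 2, against 0.962% to 0.990%, and 6.42% in the bin of Otp, a homeobox gene of the hypothalamus, against 3.54% to 3.86%. Heterozygous tumour 4 had 2.23% in the bin of Nr4a2, an orphan nuclear receptor, against 5.29% to 5.56%. Heterozygous tumour 3 had 4.95% in the bin of Gata3, against 7.75% to 8.01%. Groups of 3 cannot be judged this way.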

How the results depend on the processing

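The number of gene-rich low bins of chromosome 2 was 24 and fell to 7 when only bins above 0 in all tumours were used, since 18 of the 24 held a 0. That of chromosome 13 was 7 and became 18 with genes of all types. With a gene counted in every bin it overlaps, gene-poor high bins numbered 28 on chromosome 2 (15 before) and 57 on chromosome 13 (32 before). With each tumour's mean subtracted, the Phd2 difference of gene-rich low bins was -0.443 points and the sFlk1 difference 0.180. As a ratio to the mean, multiplied by 2.61%, the Phd2 difference was -0.0257 points in gene-rich low and 0.203 in gene-poor high bins. The sFlk1 difference of gene-poor high bins was -0.0414 on that scale. At an unadjusted p under 0.05, subtracting the mean gave 38 higher and 31 lower bins in the Phd2 model (128 and 0 before), and 37 higher and 31 lower in the sFlk1 model (18 and 55 before). The cause was not tested. Leaving out 1 tumour gave 58 to 171 such Phd2 bins (58 without wild-type tumour 2) and 0 to 70 windows. It gave -0.117 to 0.0981 points for the sFlk1 difference of gene-rich low bins, the last without empty vector tumour 1. Windows passing were 0 with the 2 groups alone, 0 with the mean subtracted and 66 with the replicate number as a block (30 without). The numbers name separate mice and did not pair them: same-numbered tumours correlated at -0.0934 to -0.00429 over 3 pairs in the Phd2 model and at -0.0526 to -0.0421 in the sFlk1 model, and 0 tumours correlated best with their own number. Leaving out the bin at 0 in 12 of 13 tumours was added after seeing the data. No depth is given, so a 0 and missing data cannot be told apart, and a value of a single sparse bin can rest on few reads.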
